A study of Mus musculus with 16 samples.

Results

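Peroxisomal fatty acid oxidation is described here through 8 mouse genes chosen by name: Acox3, Ehhadh, Hsd17b4, Acaa1a, Acaa1b, Abcd2, Abcd3 and Pex11a. All 8 were found among the 20295 genes of the count table, and all 8 were among the 12786 genes with enough counts to be tested. RNA sequencing was done on an immortalised line of wild-type mouse brown preadipocytes, made with SV40 large T antigen, after differentiation with dexamethasone, IBMX, T3 and insulin to day 7. Every culture was pretreated for 1 h and then stimulated for 3 h. The 6 groups were vehicle (2 samples), SR-3420 at 10 µM (2 samples), triacsin C at 5 µM (3 samples), triacsin C followed by SR-3420 (3 samples), etomoxir at 50 µM (3 samples) and etomoxir followed by SR-3420 (3 samples). SR-3420 is a ligand of ABHD5 that frees ABHD5 to activate the triglyceride lipase ATGL, so that fatty acids are released from lipid droplets. Triacsin C inhibits long-chain acyl-CoA synthetases, which join fatty acids to coenzyme A, and etomoxir inhibits CPT1, which carries long-chain acyl groups towards the mitochondrial matrix. The comparisons ask what the transcripts of these genes do when lipolysis is activated directly, and whether that response differs when either step of fatty acid use is blocked. The labels give 10 µM for SR-3420, whereas the figure legends of the study give a higher dose. All samples come from 1 immortalised line, so the p-values measure the spread between cultures of that line. The total count per sample ran from 9452861 to 25670624.

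The label brown adipocyte was compared with 9 marker genes. Their summed level ran from 6159 to 18018.5 RPKM (counts divided by counted length and by library size scaled with edgeR's TMM factors), and Fabp4, a fatty acid binding protein of adipocytes, was the most abundant of them. Of the thermogenic markers, Ucp1 and Dio2 were low: the group means of Ucp1 lay between 0.741 and 1.95 RPKM, and Dio2 had at most 2 counts in any sample. Summed levels were 69.8 to 187 RPKM for 5 preadipocyte or fibroblast markers, led by Pdgfrb, and 2.77 to 13.6 RPKM for 4 macrophage or leukocyte markers, led by Cd68. They were 0.165 to 0.691 RPKM for 3 endothelial, 1.99 to 4.95 RPKM for 3 hepatocyte and 0.637 to 4.30 RPKM for 3 skeletal muscle markers. Ttr, a hepatocyte marker, had 0 counts in every sample. The summed level of the 9 markers, led by Fabp4, was therefore high, while Ucp1 and Dio2 were low. Cidea, Prdm16 and Ebf2, also among the 9, had enough counts to be tested, and their levels are not compared here.

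Peroxisomes shorten very long-chain and branched fatty acids and dicarboxylic acids that mitochondria handle poorly, and pass the shortened products on. The half-transporters ABCD2 and ABCD3 carry acyl-CoA across the peroxisomal membrane, acyl-CoA oxidases such as ACOX3 carry out the first oxidation and release hydrogen peroxide, the bifunctional enzymes EHHADH and HSD17B4 hydrate and dehydrogenate the product, and the thiolases ACAA1A and ACAA1B cleave it. PEX11A takes part in elongation and division of peroxisomes, and in rodents many of these genes are known targets of the fatty acid receptor PPARα and of peroxisome proliferators.

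**Figure D1:**
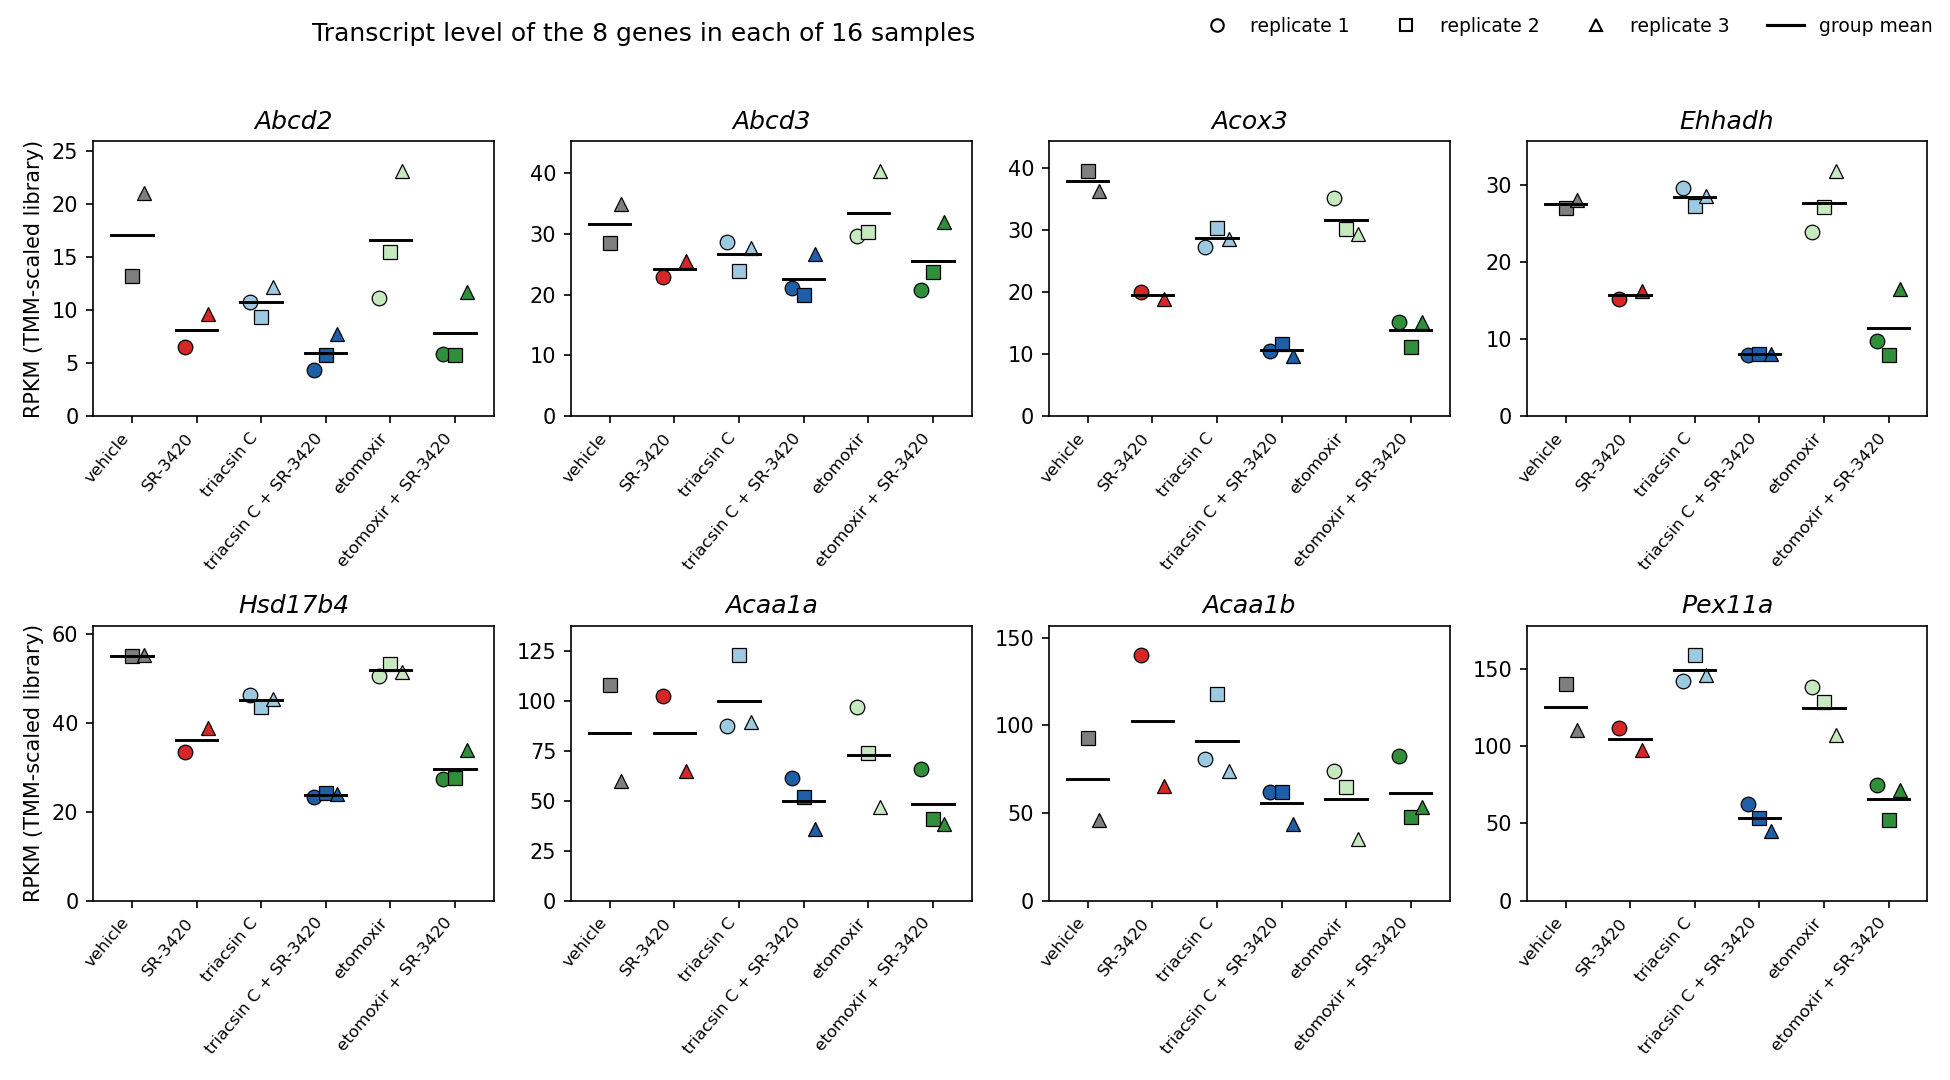
Transcript level in RPKM (y axis, from 0) of each of the 8 genes in the 6 treatment groups (x axis), with 1 point per sample, its shape giving the replicate, and a line at the group mean. For Acox3, Ehhadh and Hsd17b4 every sample with SR-3420 lies below every sample without it, whereas the 2 thiolases spread widely within groups. The share of all tested genes that separate in this way was not counted.

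Averaged over the 16 samples, the levels per counted length ran in the order Pex11a (103 RPKM), Acaa1a (71.6 RPKM), Acaa1b (71.3 RPKM), Hsd17b4 (39.5 RPKM), Abcd3 (27.3 RPKM), Acox3 (23.1 RPKM), Ehhadh (19.6 RPKM) and Abcd2 (10.8 RPKM). Pex11a stood at percentile 94.3 of the tested genes by mean level and Abcd2 at percentile 49.2. Neighbours in this order overlapped from sample to sample, and the 2 thiolases did not differ beyond their spread. No other gene of the table overlaps any of the 8. Acaa1a and Acaa1b are close paralogs: 32% of the 50-base words of the Acaa1a transcripts also occur in Acaa1b. Reads from those stretches can be assigned to either, so the values of these 2 genes are less certain than the others, for which at most 0.217% of words were shared.

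Without an inhibitor, SR-3420 lowered 2 of the 8 genes, Acox3 and Hsd17b4, and raised none by edgeR's quasi-likelihood test at a Benjamini-Hochberg adjusted p under 0.05. Of all tested genes, 2.79% were lower and 4.75% higher in that comparison. With triacsin C present, SR-3420 lowered 5 of the 8 genes, Acox3, Ehhadh, Hsd17b4, Acaa1a and Pex11a, where 19.7% of tested genes were lower and 17.3% higher. With etomoxir present, it also lowered 5 genes, Acox3, Ehhadh, Hsd17b4, Abcd2 and Pex11a, where 12.8% of tested genes were lower and 12.5% higher. These 3 comparisons share no samples. The median log2 fold change of the 8 genes was -0.50 without an inhibitor, -0.97 with triacsin C and -0.86 with etomoxir, against -0.0038, 0.019 and 0.0094 over all tested genes. None of the 8 was higher by edgeR or by DESeq2 in any of the 3 comparisons. At an unadjusted p under 0.05, 4, 6 and 6 of the 8 passed in the 3 comparisons, as did 21.8%, 46.5% and 37.2% of all tested genes in either direction. DESeq2 called 3, 5 and 5 of the 8, and 12.4%, 25.8% and 28.6% of the genes it tested. In a model of the 4 vehicle and SR-3420 samples alone, no gene of the 8 passed, and of all genes 1 was lower and 45 were higher.

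**Figure D2:**
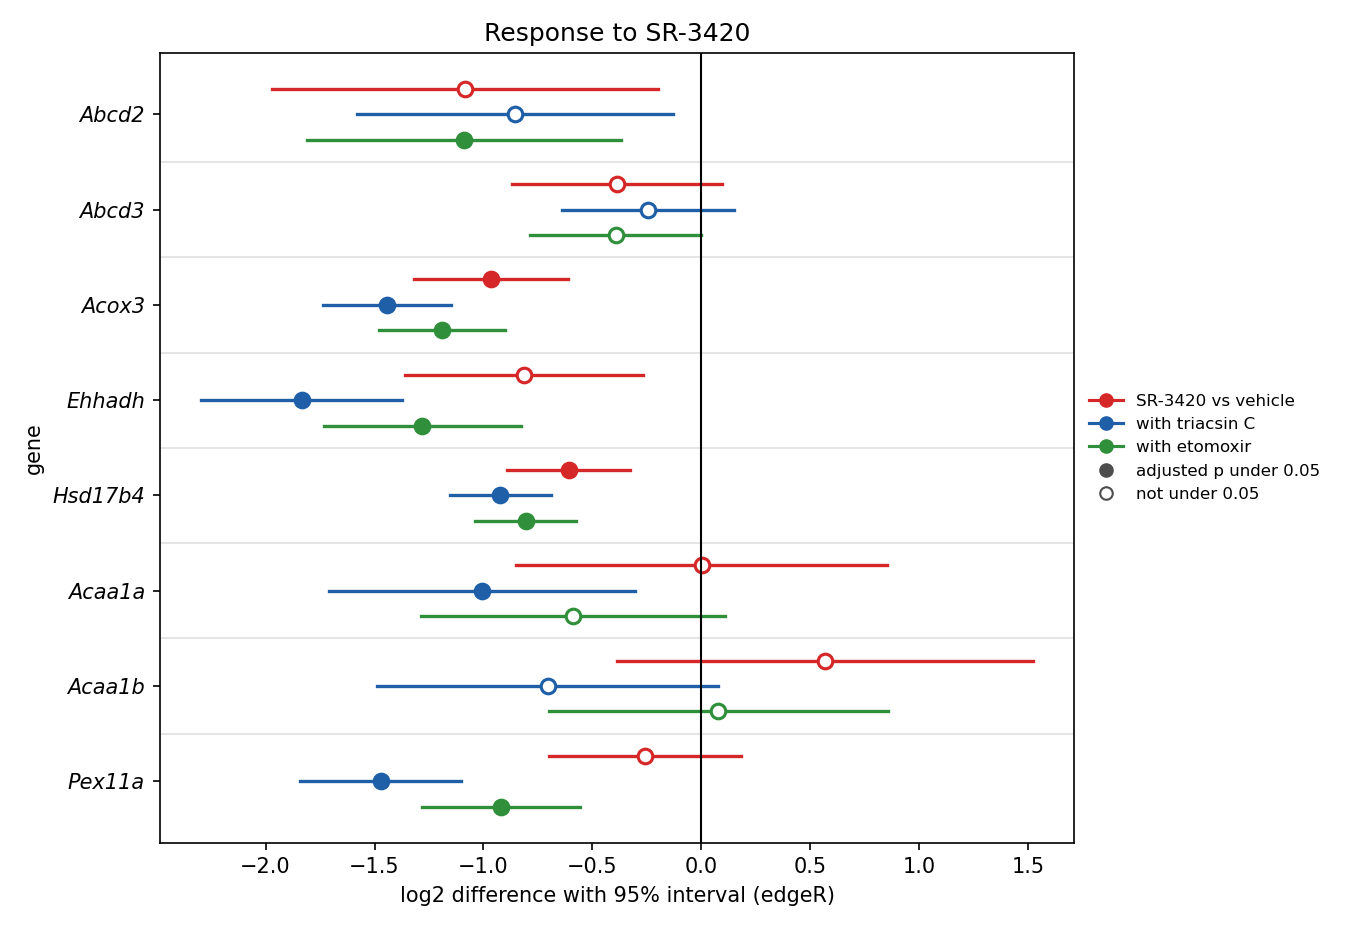
Log2 difference between samples with and without SR-3420 (x axis) for the 8 genes (y axis), without an inhibitor, with triacsin C and with etomoxir, with 95% intervals from edgeR and filled points where the adjusted p is under 0.05. Acox3 and Hsd17b4 are filled in all 3 comparisons and Abcd3 and Acaa1b in none.

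Abcd2 (chr15:90976302-91022238, minus strand, mm9), a transporter of very long-chain acyl-CoA, was at 13.2 and 21.0 RPKM in vehicle and at 6.52 and 9.58 RPKM with SR-3420. It was at 10.7, 9.32 and 12.1 RPKM with triacsin C and at 4.37, 5.75 and 7.71 RPKM once SR-3420 was added. With etomoxir the samples were at 11.1, 15.4 and 23.1 RPKM, and at 5.88, 5.75 and 11.7 RPKM with etomoxir and SR-3420. The samples with SR-3420 lay below their controls without an inhibitor and with triacsin C, while with etomoxir the highest treated sample passed the lowest control. With etomoxir, Abcd2 fell by 1.09 on the log2 scale (SE 0.33, 2.13-fold lower, edgeR quasi-likelihood test, Benjamini-Hochberg adjusted p = 0.0301), with all 3 treated samples below the control mean. Leaving out etomoxir replicate 2 (adjusted p = 0.0594), etomoxir replicate 3 (0.110), etomoxir + SR-3420 replicate 1 (0.0901) or etomoxir + SR-3420 replicate 2 (0.129) ended that call, as did a model of the 6 compared samples alone (0.105). The log2 differences without an inhibitor (-1.08, SE 0.41, adjusted p = 0.135) and with triacsin C (-0.85, SE 0.34, adjusted p = 0.0618) were of like size and did not pass. The triacsin C value passed without triacsin C + SR-3420 replicate 3 (adjusted p = 0.0466).

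Abcd3 (chr3:121461828-121518133, minus strand, mm9), the more abundant transporter, varied least of the 8 between groups, with group means from 22.6 ± 3.60 RPKM (SD, n = 3) with triacsin C and SR-3420 to 33.5 ± 6.04 RPKM (SD, n = 3) with etomoxir. Its log2 difference with SR-3420 was -0.39 (SE 0.22) without an inhibitor, -0.24 (SE 0.18) with triacsin C and -0.39 (SE 0.18) with etomoxir, and none of these passed the test. Without etomoxir + SR-3420 replicate 3 the etomoxir value was -0.59 and passed (edgeR adjusted p = 0.0313).

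Acox3 (chr5:35925709-35956450, plus strand, mm9), the oxidase with branched-chain substrates, was at 39.6 and 36.4 RPKM in vehicle and at 20.0 and 19.0 RPKM with SR-3420. With triacsin C it was at 27.3, 30.4 and 28.6 RPKM, and at 10.5, 11.6 and 9.64 RPKM with triacsin C and SR-3420. With etomoxir it was at 35.2, 30.3 and 29.4 RPKM, and at 15.2, 11.2 and 15.1 RPKM with etomoxir and SR-3420. Every SR-3420 sample was below every sample without it, and the lowest values were those with triacsin C and SR-3420 and 1 sample with etomoxir and SR-3420. SR-3420 lowered Acox3 by 1.95-fold without an inhibitor (log2 -0.96, SE 0.16, adjusted p = 0.0032), 2.72-fold with triacsin C (log2 -1.44, SE 0.14, adjusted p = 9.46e-06) and 2.28-fold with etomoxir (log2 -1.19, SE 0.13, adjusted p = 5.5e-05), by the quasi-likelihood test of edgeR (Benjamini-Hochberg adjusted). All treated samples showed the direction in each of the 3 comparisons. The call without an inhibitor was lost in a model of the 4 compared samples alone (adjusted p = 0.130) and was kept with any 1 sample left out.

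Ehhadh (chr16:21761358-21787907, minus strand, mm9), which encodes the inducible bifunctional enzyme, was at 27.1 and 28.1 RPKM in vehicle and at 15.2 and 16.2 RPKM with SR-3420. With triacsin C it was at 29.6, 27.3 and 28.6 RPKM, and at 7.87, 8.04 and 8.10 RPKM once SR-3420 was added. With etomoxir it was at 24.0, 27.2 and 31.9 RPKM, and at 9.80, 7.89 and 16.5 RPKM with etomoxir and SR-3420. The groups with and without SR-3420 did not overlap, the triacsin C samples were tightly grouped, and replicate 3 with etomoxir and SR-3420 stood above the other samples of its group. Ehhadh was 3.56-fold lower with SR-3420 in the presence of triacsin C (log2 -1.83, SE 0.21, edgeR adjusted p = 3.54e-05) and 2.43-fold lower in the presence of etomoxir (log2 -1.28, SE 0.21, edgeR adjusted p = 0.000732), in 3 of 3 treated samples each. Without an inhibitor the log2 difference was -0.81 (SE 0.25, 95% interval -1.36 to -0.27) and did not pass edgeR's test (adjusted p = 0.0713), although DESeq2's Wald test called it (log2 -0.83, adjusted p = 0.0278).

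Hsd17b4 (chr18:50287855-50355924, plus strand, mm9), the bifunctional enzyme that also handles branched-chain and bile acid intermediates, was at 54.9 and 55.1 RPKM in vehicle and at 33.4 and 38.8 RPKM with SR-3420. With triacsin C it was at 46.3, 43.5 and 45.3 RPKM, and at 23.3, 24.1 and 23.9 RPKM with triacsin C and SR-3420. With etomoxir it was at 50.5, 53.2 and 51.4 RPKM, and at 27.3, 27.6 and 33.9 RPKM with etomoxir and SR-3420. All 8 samples with SR-3420 were below all 8 without it. Hsd17b4 was 1.52-fold lower without an inhibitor (log2 -0.61, SE 0.13, adjusted p = 0.0135), 1.90-fold lower with triacsin C (log2 -0.92, SE 0.11, adjusted p = 3.54e-05) and 1.75-fold lower with etomoxir (log2 -0.81, SE 0.11, adjusted p = 0.000182), by the quasi-likelihood test of edgeR (Benjamini-Hochberg adjusted). The call without an inhibitor was lost without vehicle replicate 2 (adjusted p = 0.0755), vehicle replicate 3 (0.0834) or SR-3420 replicate 1 (0.138), and in a model of the 4 compared samples alone (0.265), so that 1 of the 8 genes, Acox3, was then called with a sample left out.

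Acaa1a (chr9:119250412-119259413, plus strand, mm9), a thiolase, was at 108 and 59.8 RPKM in vehicle and at 103 and 65.1 RPKM with SR-3420. With triacsin C it was at 87.1, 123 and 89.5 RPKM, and at 61.1, 51.9 and 35.8 RPKM with triacsin C and SR-3420. The vehicle and SR-3420 samples overlapped fully, whereas with triacsin C the 3 samples with SR-3420 were all below the 3 without it. There Acaa1a was 2.01-fold lower (log2 -1.01, SE 0.33, edgeR adjusted p = 0.0270), and this call was lost without triacsin C replicate 2 (adjusted p = 0.106), triacsin C + SR-3420 replicate 2 (0.0624) or triacsin C + SR-3420 replicate 3 (0.104). With etomoxir, values of 97.1, 73.8 and 46.9 RPKM stood against 66.0, 40.7 and 38.3 RPKM with SR-3420, which overlap, and the log2 difference of -0.59 (SE 0.32) did not pass. Without an inhibitor the log2 difference was 0.0017 (SE 0.39), and its sign turned under several alternatives.

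Acaa1b (chr9:119057161-119066211, minus strand, mm9), the other thiolase gene, on the same chromosome, did not pass in any comparison with edgeR's model of group means. Its samples ranged from 46.1 to 92.5 RPKM in vehicle and from 65.5 to 139.9 RPKM with SR-3420, and the log2 difference was 0.57 (SE 0.44), turning to -0.081 without SR-3420 replicate 1. With triacsin C, 80.8, 118 and 74.1 RPKM stood against 61.9, 61.9 and 43.5 RPKM with SR-3420, with no overlap but a log2 difference of -0.70 (SE 0.36) that did not pass. With etomoxir the log2 difference was 0.077 (SE 0.36), and it was -0.18 without etomoxir replicate 3 and -0.20 without etomoxir + SR-3420 replicate 1. In the vehicle and SR-3420 groups, both thiolases thus varied more between replicates than the oxidase and the bifunctional enzymes did.

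Pex11a (chr7:86882150-86887911, minus strand, mm9), the peroxisome division factor, was at 140.2 and 110.4 RPKM in vehicle and at 112 and 97.6 RPKM with SR-3420, which overlap. With triacsin C it was at 142, 159 and 146 RPKM, and at 62.3, 53.6 and 45.1 RPKM once SR-3420 was added. With etomoxir it was at 139, 129 and 107.5 RPKM, and at 74.7, 52.0 and 71.3 RPKM with etomoxir and SR-3420. With either inhibitor the samples with SR-3420 were all well below those without it. Pex11a was 2.77-fold lower with triacsin C (log2 -1.47, SE 0.17, edgeR adjusted p = 3.36e-05) and 1.89-fold lower with etomoxir (log2 -0.92, SE 0.17, edgeR adjusted p = 0.00162), in 3 of 3 treated samples each, while without an inhibitor the log2 difference was -0.26 (SE 0.20, edgeR adjusted p = 0.514). The authors kept 1 read per position and length before counting, and Pex11a has the shortest counted length of the 8 (879 bases) and the highest level, and that step bounds the count a short gene can reach. Its effect on the Pex11a differences was not tested.

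Whether an inhibitor alters the response to SR-3420 was tested as the difference between responses. This test shares the vehicle and SR-3420 samples between the 2 inhibitors and with the comparison without an inhibitor. With triacsin C, 1 of the 8 genes differed: the Pex11a response was lower by 1.21 log2 units than without an inhibitor (value -1.21, SE 0.26, 95% interval -1.78 to -0.64, edgeR adjusted p = 0.0311). Of all tested genes 1.27% had a lower and 1.24% a higher response. The treated Pex11a samples were 3 of 3 below their controls with triacsin C, and without an inhibitor 1 of the 2 vehicle samples lay below the higher treated sample. This call rests on nearly every sample, since the adjusted p was 0.0523 without vehicle replicate 2, 0.187 without vehicle replicate 3, 0.152 without SR-3420 replicate 1 and 0.0538 without SR-3420 replicate 3. It was 0.0602, 0.0826 and 0.0679 without triacsin C replicates 1, 2 and 3 and 0.0733 and 0.0689 without triacsin C + SR-3420 replicates 2 and 3, and the log2 value stayed between -1.05 and -1.39. It was 0.0516 with no filter on low counts. Ehhadh (-1.02, SE 0.33, adjusted p = 0.125) and Acox3 (-0.48, SE 0.21, adjusted p = 0.267) did not pass in this model, nor did Acaa1b (-1.27, SE 0.57, adjusted p = 0.283) and Acaa1a (-1.01, SE 0.51, adjusted p = 0.346). At an unadjusted p under 0.05, 4 of the 8 passed (Pex11a, Ehhadh, Acox3 and Acaa1b), as did 2130 of the 12786 tested genes. With etomoxir, edgeR called 0 of the 8 genes and 0% of all tested genes, 1 of the 8 passed at an unadjusted p under 0.05 (Pex11a, log2 -0.66, SE 0.26, adjusted p = 0.988), and DESeq2 called 0. Of all tested genes, 2.4% passed at that unadjusted threshold and DESeq2 called 0.0675%.

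**Figure D3:**
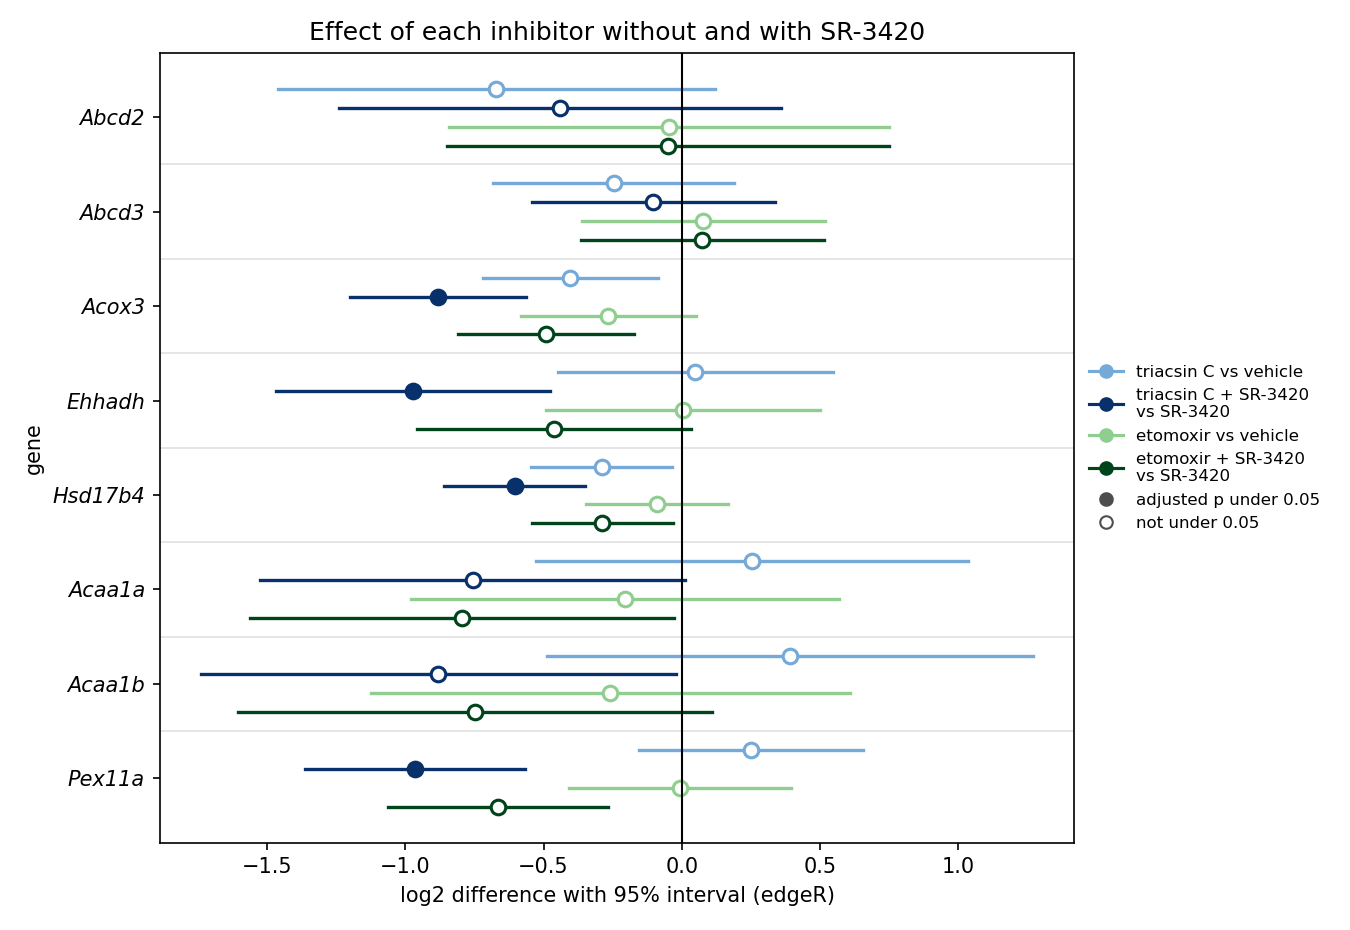
Log2 difference with 95% interval from edgeR (x axis) for the 8 genes (y axis) between samples with and without each inhibitor, in the absence and in the presence of SR-3420, filled where the adjusted p is under 0.05. The filled points, Acox3, Ehhadh, Hsd17b4 and Pex11a, all belong to triacsin C in the presence of SR-3420.

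With the inhibitors alone, none of the 8 genes passed with edgeR's model of group means. Triacsin C against vehicle gave 0 called genes of the 8, where 11.7% of all tested genes were called in either direction, with 2 at an unadjusted p under 0.05 (Acox3, log2 -0.40, SE 0.15, adjusted p = 0.0980, and Hsd17b4, log2 -0.29, SE 0.12, adjusted p = 0.146) and 2 by DESeq2. At the unadjusted threshold 24.3% of all tested genes passed, and DESeq2 called 14.3%. All 3 triacsin C samples of Acox3, of Hsd17b4 and of Abcd2 were below both vehicle samples, and all 3 of Pex11a were above both. Etomoxir against vehicle gave 0 called genes, 0 at an unadjusted p under 0.05 and 0 by DESeq2, where the shares of all tested genes were 0.0235%, 2.21% and 0.157%. The etomoxir samples of Acox3 and of Hsd17b4 were also all below both vehicle samples. How many of all tested genes separated between groups in either comparison was not counted. These 2 comparisons share the vehicle samples.

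In the presence of SR-3420, triacsin C lowered 4 of the 8 genes further, where 3.55% of all tested genes were lower and 1.02% higher: Acox3 by 1.84-fold (log2 -0.88, SE 0.15, edgeR adjusted p = 0.0056), Ehhadh by 1.96-fold (log2 -0.97, SE 0.23, edgeR adjusted p = 0.0291), Hsd17b4 by 1.52-fold (log2 -0.60, SE 0.12, edgeR adjusted p = 0.0123) and Pex11a by 1.95-fold (log2 -0.96, SE 0.18, edgeR adjusted p = 0.0113). For each of these 4 genes the 3 samples with triacsin C and SR-3420 were all below the 2 with SR-3420 alone. The same held for Acaa1a and Acaa1b, which were not called. The share of all tested genes that separated in this way was not counted. The calls depend on the 2 SR-3420 samples: without replicate 1 of them, 0 of the 8 passed, with adjusted p of 0.0751 for Acox3, 0.189 for Ehhadh, 0.0640 for Hsd17b4 and 0.152 for Pex11a, and without replicate 3 Ehhadh (0.101) and Hsd17b4 (0.0843) were lost. Ehhadh was also lost without triacsin C + SR-3420 replicate 1 (0.0845), 2 (0.106) or 3 (0.0937), and Pex11a without replicate 3 of that group (0.0525). In a model of the 5 compared samples alone, 0 of the 8 passed. Lower calls over all genes fell as well, from 454 to 47 without SR-3420 replicate 1, to 328 without replicate 3 and to 69 with the 5 samples alone, so the loss was not particular to the 8 genes. Etomoxir in the presence of SR-3420 gave 0 called genes by edgeR and by DESeq2, where 0.00782% of all tested genes were called, and 4 at an unadjusted p under 0.05, where 10% of all tested genes passed. DESeq2 called 0.702% of all genes there. These 4 were Acox3 (log2 -0.49), Hsd17b4 (-0.29), Acaa1a (-0.79) and Pex11a (-0.66). Both comparisons share the SR-3420 samples.

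Other genes of the peroxisome and of mitochondrial β-oxidation were counted in 4 lists. For all 4 lists, the shares of all tested genes that were lower with SR-3420 in the 3 comparisons were 2.79%, 19.7% and 12.8%. In a list of 25 other peroxisomal β-oxidation genes, 23 were tested, and SR-3420 lowered 3 of them without an inhibitor, 20 with triacsin C and 15 with etomoxir, with median log2 fold changes of -0.48, -1.27 and -0.72. Hacl1, which cleaves 2-hydroxy acyl-CoA in α-oxidation, fell in each comparison, by 1.37, 1.23 and 1.63 on the log2 scale. Of 15 peroxins, the proteins that build the organelle, 0, 10 and 6 were lower (medians -0.37, -0.82 and -0.57), and Pex14 was higher with triacsin C (log2 0.88), a call that was lost with triacsin C replicate 1 or 3 or triacsin C + SR-3420 replicate 1 left out (adjusted p = 0.0524, 0.0799 and 0.0609). Without an inhibitor, 4 peroxins passed at an unadjusted p under 0.05 and 2 were lower by DESeq2. The shares over all genes there, in either direction, were 21.8% and 12.4%. Pex11g, of the family of Pex11a, fell by 1.63 with triacsin C and 1.13 with etomoxir on the log2 scale. Among 20 other peroxisomal proteins 4, 13 and 13 were lower (medians -0.54, -0.95 and -0.81), led by Pxmp2 without an inhibitor (log2 -1.09) and with etomoxir (log2 -1.59) and by Tysnd1, a peroxisomal protease, with triacsin C (log2 -1.76). Of 18 mitochondrial β-oxidation genes 2, 17 and 10 were lower (medians -0.46, -1.06 and -0.62), led by Echs1 (log2 -0.84) without an inhibitor and by Cpt2 with triacsin C (log2 -1.93) and with etomoxir (log2 -1.31). Cpt1a, the carnitine palmitoyltransferase that etomoxir targets, was the 1 gene of these lists that was higher without an inhibitor (log2 1.09, SE 0.23, edgeR adjusted p = 0.0123). Falls with SR-3420 were thus found among genes of both organelles.

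**Figure D4:**
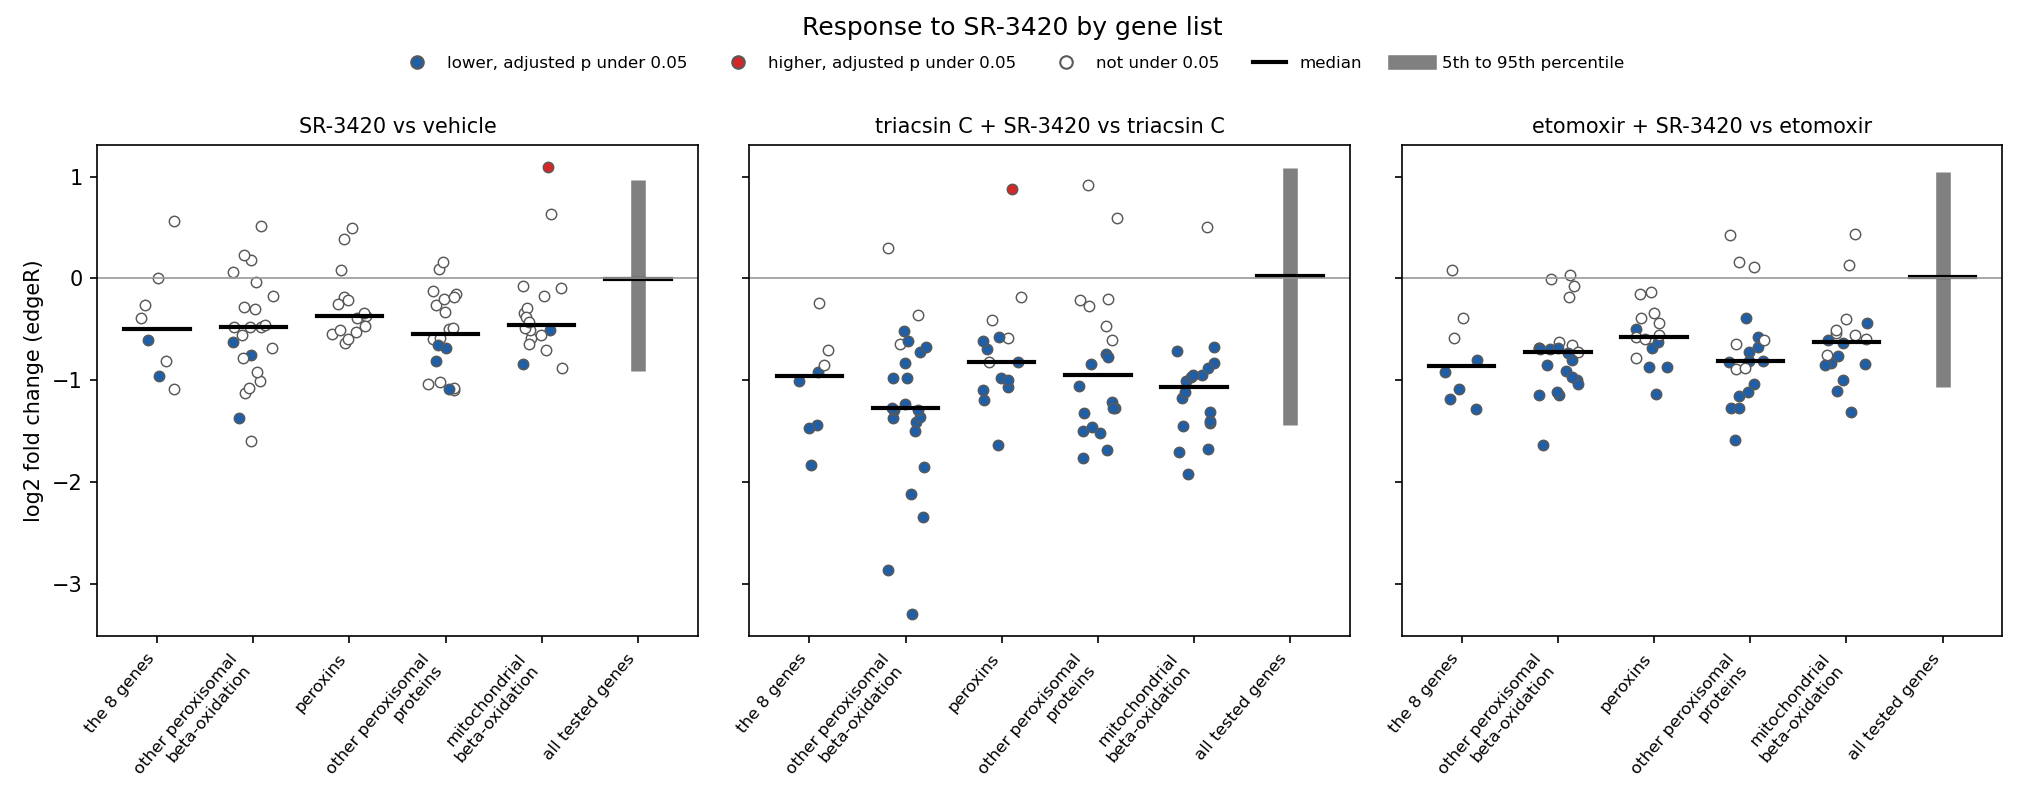
Log2 fold change with SR-3420 from edgeR (y axis) of the 8 genes, of 4 other gene lists and of all tested genes (x axis), in the 3 comparisons, with 1 point per gene, filled where the adjusted p is under 0.05, a black line at the median and, for all tested genes, a bar from the 5th to the 95th percentile. The medians of the lists lie below 0 in all 3 panels, and that of all tested genes near 0.

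Without an inhibitor the counts of called genes depend on single samples, in the lists and over all genes. With vehicle replicate 2, vehicle replicate 3, SR-3420 replicate 1 or SR-3420 replicate 3 left out, 1, 1, 1 and 2 other peroxisomal β-oxidation genes, 1, 2, 1 and 1 other peroxisomal proteins and 0, 0, 0 and 1 mitochondrial genes were lower, and 85, 112, 69 and 140 of all genes, against 357 with all samples. The call of Cpt1a was lost without either vehicle replicate 2 or 3 (adjusted p = 0.0711 and 0.103) and without SR-3420 replicate 1 (0.105), while Hacl1 and Pxmp2 passed throughout. With triacsin C, the lower counts with 1 sample left out were 15 to 18, 8 to 10, 12 to 13 and 14 to 17 in the 4 lists. With etomoxir they were 10 to 16, 6 to 7, 6 to 12 and 7 to 14, with 10 and 6 in the first list and in that of other peroxisomal proteins without etomoxir + SR-3420 replicate 2.

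Triacsin C alone lowered Hacl1 (log2 -0.79), Pex14 (log2 -1.27), Lonp2 (log2 -0.77) and Gnpat (log2 -0.50) and raised Acot4 (log2 1.34), while 0 of the 18 mitochondrial genes were called by edgeR and 0 by DESeq2, with 4 at an unadjusted p under 0.05, where 24.3% of all tested genes passed. Of these, the calls of Hacl1 and Lonp2 held with any 1 sample left out, Pex14 was lost without vehicle replicate 2 or triacsin C replicate 3 (adjusted p = 0.157 and 0.0546), Gnpat without vehicle replicate 2 or triacsin C replicate 1 or 3 (0.185, 0.0857 and 0.0592) and Acot4 without vehicle replicate 3 (0.0740). Etomoxir alone called 0 genes of the 4 lists by edgeR and by DESeq2, with 1 mitochondrial gene at an unadjusted p under 0.05 (2.21% of all tested genes). In the presence of SR-3420, triacsin C lowered 9, 3, 3 and 6 genes of the 4 lists (3.55% of all tested genes), counts that dropped to 0, 0, 0 and 1 without SR-3420 replicate 1 and to at most 5, 2, 2 and 2 without any other 1 sample. Etomoxir there called 0 by edgeR, and DESeq2 called 1 peroxin and 1 mitochondrial gene, with 8, 4, 7 and 8 at an unadjusted p under 0.05, where DESeq2 called 0.702% of all genes and 10% passed unadjusted. The response to SR-3420 itself was lower with triacsin C than without an inhibitor for 5, 1, 1 and 5 genes of the 4 lists (1 to 2, 0, 0 and 0 to 3 with any 1 of the 10 samples left out, and over all genes 28 to 106 against 163), among them Acot4 (log2 -2.53, adjusted p = 0.00477) and Cpt2 (log2 -1.37, adjusted p = 0.0079), by edgeR's test. Acot4 passed with any 1 sample left out, and Cpt2 was lost without vehicle replicate 3 (adjusted p = 0.0620). For etomoxir the same test gave 0 genes of the 4 lists by edgeR and by DESeq2, with 2, 2, 1 and 2 at an unadjusted p under 0.05 (2.4% of all tested genes).

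Angptl4, Pdk4 and Plin2, known PPAR targets outside the peroxisome that were chosen as reference genes, rose with SR-3420. The study had named Pdk4 and Plin2 as genes that SR-3420 activates in this experiment, so their rise here is no separate finding. Without an inhibitor SR-3420 raised Angptl4 (log2 2.10, SE 0.14, adjusted p = 3.82e-06), Pdk4 (log2 2.25, SE 0.21, adjusted p = 4.28e-05) and Plin2 (log2 2.10, SE 0.26, adjusted p = 0.000421), by the quasi-likelihood test of edgeR (Benjamini-Hochberg adjusted). Mean levels went from 112 to 481 RPKM for Angptl4, from 29.4 to 140.5 RPKM for Pdk4 and from 218 to 939 RPKM for Plin2, in 2 of 2 treated samples each. All 3 genes also rose with SR-3420 in the presence of triacsin C (log2 0.87, 1.19 and 1.23) and of etomoxir (log2 1.57, 1.61 and 1.43). Triacsin C alone had already raised them (2.82, 2.24 and 1.75 times, edgeR adjusted p = 9.63e-06, 0.00125 and 0.0394, the last lost in 4 of 5 fits with 1 sample left out). With triacsin C and SR-3420 together, the mean levels of Angptl4 and Pdk4 were 580.5 and 150.1 RPKM. With etomoxir alone, Angptl4 gave log2 0.81 (SE 0.12, edgeR adjusted p = 0.0599), Pdk4 0.58 (SE 0.19) and Plin2 0.20 (SE 0.23), none of them called. With the replicate number as a block in edgeR, Angptl4 passed there (adjusted p = 0.0128). The transcript of the receptor Ppara itself was at a mean of 12.0 RPKM in vehicle, 16.4 RPKM with SR-3420, 6.77 RPKM with triacsin C and 3.33 RPKM with triacsin C and SR-3420. Ppara fell by 1.03 on the log2 scale with SR-3420 in the presence of triacsin C (SE 0.23, edgeR adjusted p = 0.00324, 3 of 3 samples) and gave log2 0.44 (SE 0.27, not called) without an inhibitor and -0.0037 (SE 0.22, not called) with etomoxir. The difference between the first and the second of these responses was -1.47 (SE 0.35, edgeR adjusted p = 0.0468), and it was lost with each of the 10 samples left out in turn. Pparg was lower with SR-3420 without an inhibitor (log2 -0.82, adjusted p = 0.0327, lost with any 1 of the 4 samples left out) and with etomoxir (log2 -0.79, adjusted p = 0.0046), and was lower with triacsin C alone (log2 -1.48, adjusted p = 0.000182), by edgeR's test. Triacsin C alone also lowered Rxra (log2 -1.55, edgeR adjusted p = 0.000773), Ppargc1a (log2 -1.04) and Ppargc1b (log2 -1.08), the last pair lost in 4 of 5 fits with 1 sample left out, and Ppara (log2 -0.83, edgeR adjusted p = 0.0427), lost in 5 of 5. Ppard was not called in any of the 3 comparisons with SR-3420. Rxra was lower with SR-3420 in the presence of etomoxir by edgeR's test, a call lost in 0 of 6 fits with 1 sample left out. Triacsin C in the presence of SR-3420 lowered 4 of the 9 reference genes, Ppara, Ppargc1a, Ppargc1b and Rxra, where 3.55% of all tested genes were lower. Those calls were lost in 0, 2, 0 and 4 of 5 fits with 1 sample left out.

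The summed level of the adipocyte markers was lower with SR-3420 in each of the 3 comparisons, and Fabp4 is the most abundant of them. The summed level of the 9 brown adipocyte markers was 14561 and 14590 RPKM in vehicle and 10318 and 10828 RPKM with SR-3420, 16970, 17101 and 18018.5 RPKM with triacsin C and 6239.7, 6535 and 7403 RPKM with triacsin C and SR-3420. It was 14215, 13653 and 16646 RPKM with etomoxir and 7336, 6159 and 10637 RPKM with etomoxir and SR-3420. Of the 8 markers tested, SR-3420 lowered 0 without an inhibitor (median log2 -0.0010, 4 of 8 below 0, and 1 at an unadjusted p under 0.05), 4 with triacsin C (Adipoq log2 -1.68, Plin1 -1.48, Fabp4 -1.33 and Lipe -1.13) and 3 with etomoxir (Adipoq -1.24, Plin1 -0.90 and Fabp4 -0.85). Of all tested genes, 2.79%, 19.7% and 12.8% were lower in these 3 comparisons. SR-3420 raised Ebf2 (log2 0.97) and Prdm16 (log2 0.74) with triacsin C, where 17.3% of all tested genes were higher. With 1 of the 6 compared samples left out in turn, the calls of Ebf2 and Prdm16 were lost in 2 and 4 fits, and those of Fabp4 and Plin1 with etomoxir in 3 and 4. Triacsin C alone lowered Prdm16 (log2 -2.14, SE 0.29, edgeR adjusted p = 0.000255) and Ebf2 (log2 -1.13, SE 0.32, edgeR adjusted p = 0.0360, lost in 5 of 5 fits with 1 sample left out) and raised the macrophage marker Cd68 (log2 1.92, SE 0.27, edgeR adjusted p = 0.000366). Csf1r, the other tested marker of the macrophage or leukocyte list, was not called there (log2 0.50, SE 0.44). Of the 5 preadipocyte or fibroblast markers SR-3420 raised 0, 2 and 3 in the 3 comparisons, where 4.75%, 17.3% and 12.5% of all tested genes were higher. With triacsin C, the calls of Pdgfra and Thy1 were lost in 4 and 2 of 6 fits with 1 sample left out. With etomoxir, those of Ly6a and Pdgfra were each lost in 4 of 6 such fits, and that of Thy1 in 0. Of the other marker lists, SR-3420 raised the endothelial marker Kdr with triacsin C (log2 0.96, lost in 4 of 6 fits with 1 sample left out) and with etomoxir (log2 1.28). With triacsin C it lowered Cd68 (log2 -1.29) and the hepatocyte marker Apoa1 (log2 -0.92, lost in 1 of 6 such fits). Triacsin C in the presence of SR-3420 lowered 4 of the 8 brown adipocyte markers tested (median log2 -0.95), where 3.55% of all tested genes were lower. These were Adipoq, Lipe, Plin1 and Prdm16, with calls lost in 3, 3, 4 and 2 of 5 fits with 1 sample left out. The part of these markers in the results was not tested, and fewer cells of a type and less RNA per cell cannot be told apart in bulk samples.

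The motif bound by PPAR and RXR dimers, a direct repeat of AGGTCA with 1 base between the copies (AGGTCANAGGTCA), was searched on both strands, since many of these genes are textbook PPARα targets. RefSeq promoter sequences (GRCm38.p6) were matched for 6 of the 8 genes, all but Abcd2 and Hsd17b4. In the 250 bases before the start, with up to 2 mismatches, 0 of these 6 had a match, against 3.05% of the tested genes with a promoter and 3.24% of all promoters. A window of 5 kb before the start in mm9, chosen after the first had no match and with up to 1 mismatch, held a match in 1 of the 8 genes, Acaa1b, against 11.3% of the tested genes. That stretch is shown as the 1 match among the 8, at chr9:119067146-119067174 on the minus strand, with the motif in the opposite orientation in capitals and its first base 955 bases before the start of Acaa1b.
Acaa1b: tggggatcTGACCTCTGGCCTcccacttg
A match of letters is a description and shows no binding.

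The genes whose levels followed each of the 8 most closely over the 16 samples were named by Pearson's r of log2 library-scaled counts among 10334 genes, as a description. The 16 samples fall into those with and without SR-3420, so that a high r can rest on that split alone. Ehhadh was closest to Cat, the peroxisomal catalase (r = 0.993, rho = 0.982), then Scp2 and Acad11. Acox3 was closest to Mccc2 (r = 0.990, rho = 0.947), Hsd17b4 to Aoc3 (r = 0.983, rho = 0.956) and Pex11a to Taco1 (r = 0.995, rho = 0.997), followed by Ech1 and Mlycd. Acaa1a was closest to Cyc1 (r = 0.995, rho = 0.994), followed by the respiratory chain genes Uqcrc1 and Cox4i1, and Acaa1b to Usf2 (r = 0.970, rho = 0.976). Abcd2 was closest to B3galt2 (r = 0.989, rho = 0.985) and Abcd3 to Dennd6a (r = 0.983, rho = 0.968). Among the 8 themselves, r was 0.970 between Acox3 and Hsd17b4, 0.963 between Ehhadh and Hsd17b4 and 0.948 between Acox3 and Ehhadh. Pex11a gave 0.932 with Acox3, 0.915 with Ehhadh, 0.876 with Hsd17b4 and 0.832 with Acaa1a. Abcd2 gave 0.933 with Abcd3, 0.872 with Hsd17b4 and 0.853 with Ehhadh, and Acaa1a gave 0.846 with Acaa1b. The lowest value was -0.478, between Acaa1b and Abcd3, so the 8 genes did not all follow 1 pattern over the samples.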

How the data were processed

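The deposited counts per gene were used as the authors made them: reads mapped to mm9 with STAR 2.4.2a, 1 read kept per position and length with HOMER, and reads counted per gene with iRNA-seq. How strand was used in counting is not stated. The deposited counted length of each gene, another value of the file, gave RPKM. The members and gene lists were chosen with earlier results of these data known. In R 4.3.3, edgeR 4.0.16 kept 12786 of 20295 genes (filterByExpr), scaled libraries by TMM and fitted 1 quasi-likelihood model with a mean for each of 6 groups over 16 samples. P-values were two-sided and adjusted by Benjamini-Hochberg over all tested genes. Genes at an adjusted p under 0.05 were called, with no fold threshold. The SE is the log2 fold change divided by the root of the F statistic. The procedure was tested on simulated data. Alternatives were DESeq2 1.42.0 (Wald test), RLE scaling, library size alone, no filter, at least 10 counts in every sample, the compared groups alone, the replicate number as a block, and each sample left out. In each of the 4 lists of peroxisomal and mitochondrial genes, up to 3 called genes per direction and comparison, those with the largest change, could be named, as could 3 most alike genes per member, with a mean CPM of at least 5. The 9 reference genes and the cell type markers were fixed by name. The values of 1 gene of the lists are not reported here. Figures and sequence searches used Python 3.11.15 and matplotlib 3.10.9.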

Additional observations from a re-analysis of the deposited data

Results flagged for a closer look

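The test of the difference between responses picked out 13 genes among the 8, the reference genes, the markers and the genes named from the 4 lists, whose response to SR-3420 was lower with triacsin C than without an inhibitor (edgeR quasi-likelihood test, Benjamini-Hochberg adjusted p). Among the 8 genes this was Pex11a (log2 -1.21, SE 0.26, adjusted p = 0.0311). Of other peroxisomal genes these were Acot4 (log2 -2.53, adjusted p = 0.00477), Crat (-1.46, adjusted p = 0.0412), Ech1 (-1.08, adjusted p = 0.0403), Pxmp4 (-1.03, adjusted p = 0.0409) and Pex19 (-0.73, adjusted p = 0.0423). Of mitochondrial genes these were Cpt2 (log2 -1.37, adjusted p = 0.0079), Eci1 (-1.33, adjusted p = 0.0229) and Cpt1b (-1.30, adjusted p = 0.0458). Of the receptor and its targets outside the peroxisome these were Ppara (log2 -1.47, adjusted p = 0.0468), Angptl4 (-1.23, adjusted p = 0.00362) and Pdk4 (-1.07, adjusted p = 0.0486). Of the markers this was Cd68 (log2 -1.98, adjusted p = 0.0139). Taco1, outside these lists and named only as most alike to Pex11a, also passed (log2 -1.14, adjusted p = 0.0496). For Angptl4 and Pdk4 the rise was smaller with triacsin C, which alone had raised them (2.82 and 2.24 times). For Pex11a and Cpt2 the fall with triacsin C was called by edgeR. Their log2 differences without an inhibitor (-0.26 and -0.56) were not called. With 1 of the 10 samples left out in turn, the calls of Crat, Ech1, Pxmp4, Pex19, Cpt1b, Ppara and Pdk4 were lost in all 10 fits, that of Pex11a in 9, that of Eci1 in 4, that of Cd68 in 2 and that of Cpt2 in 1, and those of Acot4 and Angptl4 were kept. Groups of 2 or 3 samples are too small for a test of single outlying samples.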

How the results depend on the processing

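No member was called higher under any setting. The falls of Acox3, Hsd17b4, Ehhadh and Pex11a with SR-3420 in the presence of either inhibitor were called under every alternative. The number of members called in the comparison of SR-3420 with vehicle was 2, but 4 with the replicate block and 0 with the compared groups alone. For triacsin C against vehicle it was 0, but 2 by DESeq2, 1 (Acox3) with the replicate block and 1 with library size alone, and the block took lower calls over all genes from 887 to 1542. For triacsin C + SR-3420 against SR-3420 it was 4, but 6 with the replicate block and 0 with the compared groups alone. For etomoxir + SR-3420 against SR-3420 it was 0, but 4 with the replicate block. For the difference of the responses with and without triacsin C it was 1, but 0 with no filter, 4 with the block and 2 with the compared groups alone. Over all genes 321 were called there, but 163 with no filter and 271 with the compared groups alone, and the block took lower calls from 163 to 932 and higher calls from 158 to 737. For SR-3420 with triacsin C and with etomoxir it was 5 and 5, and 7 and 7 with the block, while lower calls over all 12786 genes went from 2514 to 3670 and from 1637 to 2879. The block ended no call of the 8 genes. It added Ehhadh and Abcd2 for SR-3420, Acaa1b and Abcd2 for it with triacsin C, Acaa1a and Abcd3 for it with etomoxir, and Ehhadh, Acaa1a and Acaa1b for the difference with triacsin C, and Acaa1a and Acaa1b were among those it added for each inhibitor in the presence of SR-3420. In the lists of other peroxisomal β-oxidation genes, peroxins, other peroxisomal proteins and mitochondrial genes it gave 8, 3, 7 and 8 lower genes for SR-3420 (3, 0, 4 and 2 without it), 7, 5, 5 and 9 for etomoxir in the presence of SR-3420 (0 in each) and 10, 10, 9 and 12 for triacsin C there (9, 3, 3 and 6), while 1015, 1077 and 1731 of 12786 tested genes were lower with it. For triacsin C alone the block gave 2, 1, 1 and 4 higher genes in the 4 lists (1, 0, 0 and 0 without it). Lower genes there were 2, 1, 3 and 0 (1, 1, 2 and 0 without it). Over all genes, 1530 were higher and 1542 lower with the block. In the main model, 0 of the 18 mitochondrial genes had a log2 difference below 0 there (median 0.22). Leaving out 1 sample gave 1 to 2 members for SR-3420, 4 to 5 for it with triacsin C, 4 to 6 for it with etomoxir, 0 to 3 for triacsin C in the presence of SR-3420, 0 to 1 for the difference with triacsin C, and 0 to 0 for the other 4 comparisons. Where a group is left with 1 sample, that sample is assumed to vary like the other groups. The Acaa1a difference with SR-3420, near 0, was -0.013 with RLE, -0.011 by DESeq2, -0.0048 with at least 10 counts in every sample, -0.073 with the block, -0.11 with library size alone, -0.017 with the compared groups alone, and from -0.36 to 0.49 with 1 sample left out, below 0 without vehicle replicate 3 or SR-3420 replicate 1. Acaa1b ran from -0.081 (without SR-3420 replicate 1) to 1.16 there, and with etomoxir from -0.20 (without etomoxir + SR-3420 replicate 1) to 0.29, with -0.18 without etomoxir replicate 3. In the difference with triacsin C, Abcd2 ran from -0.14 (without vehicle replicate 3) to 0.53, with -0.019 without SR-3420 replicate 1, and Abcd3 from -0.010 (without vehicle replicate 3) to 0.30. Library size alone, added after seeing the data, moved the median of all genes by -0.11 for SR-3420 and by 0.13 for the difference with triacsin C. The share of higher among all called genes for SR-3420 was 63.0%, but 44.9% with library size alone and 97.8% with the compared groups alone, where 46 genes were called. For triacsin C in the presence of SR-3420 it was 22.4%, but 37.9% by DESeq2, 42.5% with the block and 11.5% with the compared groups alone. By DESeq2 it was 41.2% against 66.7% for etomoxir alone, where 17 and 3 genes were called. The compared groups alone leave fewer samples to estimate spread, and the cause of the other changes was not tested. The labels do not say whether replicate numbers pair samples. After subtracting group means, 35 pairs with the same number had a mean r of 0.488 (lowest -0.352, 27 over 0.1). The mean over 71 pairs with different numbers was -0.242, a value tied to the first, since deviations cancel within each group. For 11 of 16 samples the mean r was highest with the samples of their own number in other groups, so the block was kept as an alternative. Counts of the 8 genes per sample ran from 260 to 3960, and the groups of 2 or 3 samples limit what can be detected.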
